A study of Mus musculus with 57 samples.

Results

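The cells described here are macrophage-like cells found among single cells prepared from mouse renal vesicles. They were chosen by 1 measured value, a C1qb level of at least 1000 RPKM (mapped reads scaled to transcript length and to the total of the library), which 5 of 57 cells reached: cells 1, 25, 35, 46 and 58. The reference was the 50 cells with a Pax8 level of at least 5 RPKM. Pax8 is a transcription factor of the early nephron. All 57 cells came from 1 pool of 2 kidneys of Tg(Crym-EGFP) mice of mixed background and unknown sex at postnatal day 4, were sorted by flow cytometry and were captured singly in a microfluidic device. The transgene marks cells by a Crym promoter that drives EGFP, and every cell of both groups carried it. The macrophage-like cells were 8.77% of the cells (exact Clopper-Pearson 95% interval 2.91% to 19.3%, which covers counting error only).

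Because both groups were defined on levels in the same table and share 1 pool, the values below describe these cells, no test was made and the spread is between cells, not between mice. The 2 genes of the rule left a wide space between the groups. C1qb was 2362, 1589, 2218, 2092 and 2240 RPKM in cells 1, 25, 35, 46 and 58, in the order that is kept throughout. The next highest cells were cell 56 at 129 RPKM, cell 41 at 38.0 RPKM and cell 50 at 13.2 RPKM, all of them reference cells. Pax8 was 0, 0, 0.886, 1.71 and 1.99 RPKM in the macrophage-like cells, and the lowest reference cell, cell 50, had 10.7 RPKM. Cells 13 and 53, with Pax8 at 0.744 and 0.437 RPKM and C1qb listed at 0, belonged to neither group.

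**Figure D1:**
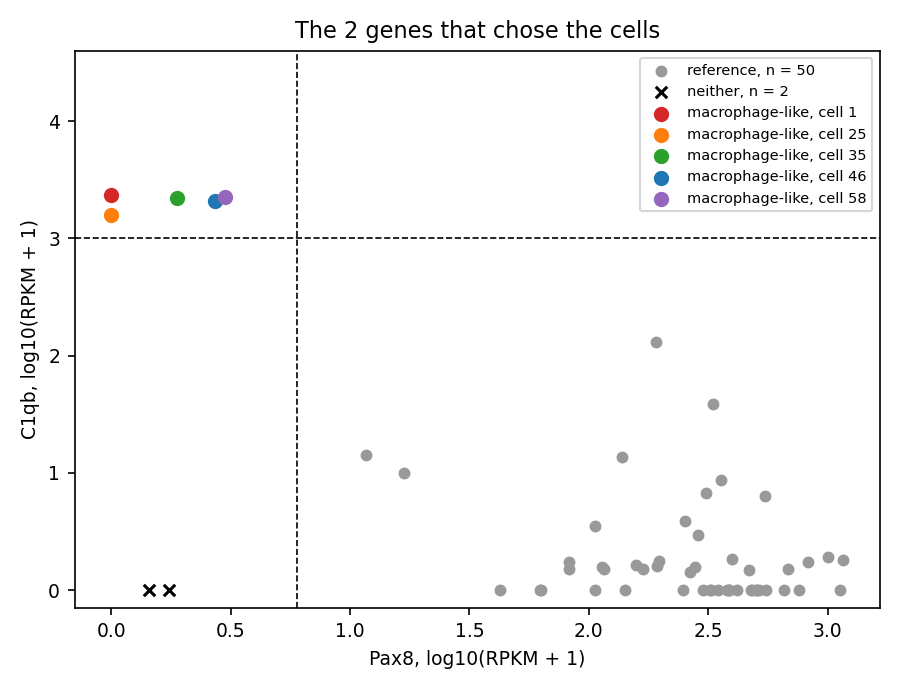
C1qb against Pax8 in each of the 57 cells, both as log10(RPKM + 1), with the thresholds of the rule as dashed lines. The 5 macrophage-like cells lie at the upper left, the 50 reference cells at the lower right and 2 cells in neither at the lower left.

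Macrophages settle in the kidney before birth and remain through postnatal growth, where they engulf dying cells, degrade their contents in lysosomes, and recycle the lipid and iron that this releases. Tissue-resident macrophages depend on the receptor Csf1r, and complement C1q, the scavenger receptor Mrc1 and the phagocytic receptors Mertk and Trem2 are commonly used to recognise them. The factor PU.1 binds purine-rich sites near many myeloid genes, MAF family factors hold macrophages in their differentiated state, and TFEB and its relatives bind an E-box near many lysosomal genes.

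The promoters of 6 genes are shown because their genes carry the macrophage and lysosomal findings. Each is the 250 bases before the start site on the sense strand, from RefSeq on GRCm38.p6, with C1qb at chr4:136886201-136886450 on the minus strand, C1qc at chr4:136892915-136893164 on the minus strand, Pf4 at chr5:90772185-90772434 on the plus strand, Ctsd at chr7:142387828-142388077 on the minus strand, Lamp1 at chr8:13158911-13159160 on the plus strand and Atp6v0b at chr4:117887330-117887579 on the minus strand. Capitals mark TGCTGA, one arm of the MAF recognition element, in C1qb, the complement of the PU.1 site GAGGAAGT in C1qc and Pf4, and the TFEB E-box CACGTG in the last 3.
C1qb: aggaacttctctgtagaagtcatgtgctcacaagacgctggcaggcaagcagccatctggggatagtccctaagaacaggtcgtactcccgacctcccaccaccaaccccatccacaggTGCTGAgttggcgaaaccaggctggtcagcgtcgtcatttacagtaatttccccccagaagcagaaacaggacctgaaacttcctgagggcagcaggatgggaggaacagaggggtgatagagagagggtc
C1qc: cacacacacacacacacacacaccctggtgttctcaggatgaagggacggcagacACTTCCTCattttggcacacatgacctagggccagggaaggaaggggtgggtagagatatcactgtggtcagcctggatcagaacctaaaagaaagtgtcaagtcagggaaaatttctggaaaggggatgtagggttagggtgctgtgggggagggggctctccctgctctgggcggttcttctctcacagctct
Pf4: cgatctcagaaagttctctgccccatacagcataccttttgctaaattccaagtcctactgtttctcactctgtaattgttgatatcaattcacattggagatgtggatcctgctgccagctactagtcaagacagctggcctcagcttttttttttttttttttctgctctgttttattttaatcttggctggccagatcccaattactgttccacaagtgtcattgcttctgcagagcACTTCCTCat
Ctsd: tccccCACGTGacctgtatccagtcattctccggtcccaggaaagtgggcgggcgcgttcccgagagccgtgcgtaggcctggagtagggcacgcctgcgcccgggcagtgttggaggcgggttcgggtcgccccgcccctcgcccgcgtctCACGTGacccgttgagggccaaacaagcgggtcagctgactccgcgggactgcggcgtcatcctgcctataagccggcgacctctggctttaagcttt
Lamp1: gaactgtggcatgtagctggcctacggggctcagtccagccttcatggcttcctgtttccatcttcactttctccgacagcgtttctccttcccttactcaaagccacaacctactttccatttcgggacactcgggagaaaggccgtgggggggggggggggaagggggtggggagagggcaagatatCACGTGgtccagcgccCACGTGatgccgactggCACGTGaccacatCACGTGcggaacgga
Atp6v0b: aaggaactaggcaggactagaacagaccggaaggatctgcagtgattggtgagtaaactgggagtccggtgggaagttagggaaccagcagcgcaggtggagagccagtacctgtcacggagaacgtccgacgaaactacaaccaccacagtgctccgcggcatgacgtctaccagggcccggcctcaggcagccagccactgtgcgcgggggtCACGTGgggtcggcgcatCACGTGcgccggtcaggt

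Ctsd held 2 copies of CACGTG, Lamp1 held 4 and Atp6v0b held 2. In windows of 300 bases that also took in the first 50 bases after the start, and with both strands searched, CACGTG was present in 24.7% of the 81 promoters of lysosome genes, against 7.15% of all 32851 promoters and 10.0% of the 12135 promoters of genes in the table. It was present in 7.52% of promoters of genes called higher and in 1.30% of the 77 promoters of genes at least 50-fold higher, both below the share over the table. GAGGAAGT was present in 6.77% of the 399 promoters of genes called higher in the macrophage-like cells, against 3.20% of all promoters, 3.01% of those in the table and 2.46% of the 1099 promoters of genes called lower. TGCTGA was present in 17.3% of promoters of genes called higher and in 19.5% of all promoters, and the C/EBP palindrome TTGCGCAA in 0.251% and 0.183%. Among genes in the table TGCTGA was present in 14.8% and TTGCGCAA in 0.280% of promoters. RefSeq promoters were matched for 312 of the 394 genes called higher and 67 of the 84 lysosome genes. Matches of TGCTGA and GAGGAAGT can share bases, since the first ends with the GA that opens the second, and a match describes the sequence only.

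All genes were compared by the ratio of mean RPKM plus 1. A gene was called higher when this ratio was at least 4 and the gene reached 1 RPKM in at least 4 of the 5 macrophage-like cells, and lower when the reference was at least 4 times higher and the gene reached 1 RPKM in at least 25 of the 50 reference cells. Of 12087 genes, 394 were called higher (3.26%) and 1082 lower (8.95%). Only the 3634 genes detected in at least 25 reference cells could be called lower, and 29.8% of them were. The lowest macrophage-like cell exceeded the highest reference cell for 75 genes (0.621%), and the highest macrophage-like cell lay below the lowest reference cell for 8 genes (0.0662%), a comparison that is uneven because 1 side has 5 cells and the other 50. Of the genes called higher, 179 differed at least 16-fold and 71 at least 64-fold, and of those called lower, 402 and 63. The median log2 ratio over all genes was -1.10, and the medians of gene lists below are to be read beside that value. With each cell rescaled by its median ratio over the 306 genes detected in every cell, the median was -0.77 and the calls became 564 higher and 849 lower, so that 39.9% of called genes were higher in place of 26.7%. Without cell 25, where detection is then needed in 4 of 4 cells, 249 genes were called higher. The genes named below follow a rule on ratio and list membership, except Crym, Csf1r, Sfpi1, Mertk, Cx3cr1, Emr1, Serping1, C3, Ccl3, Ccl4, Ccl6, Ccl12, Ccl24, Lyve1, Folr2, P2ry12, Tmem119, Olfml3, Ctsl, Ctsk, Lamp1, Abca1, Soat1, Lta4h, Ptgs2, Slc40a1, Hmox1, Tfrc, Ireb2, Slc46a1, Mcm3, Cdk1 and Cdca8, which were chosen after their values were seen.

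The most abundant transcripts of the macrophage-like cells, compared per unit of transcript length, were led by ferritin light chain Ftl1 (mean 15640 RPKM), actin Actb (13363 RPKM), the lipid carrier Apoe (6274 RPKM) and the actin-sequestering peptide Tmsb4x (5195 RPKM). Of the 20 highest, 12 were called higher than in the reference and 0 lower, and 7 ranked below the first 1000 genes by mean RPKM in the reference. Of 104 macrophage identity genes 63 were called higher (60.6%, against 3.26% of all genes) and 0 lower, with a median log2 ratio of 5.41. Without C1qb, by which the cells were chosen, 62 of 103 were called higher, with a median of 5.29. The 104 are the measured members of a list of 137. Genes of the table have at least 2 cells above 3 RPKM. Some members, such as Spic, passed this only through the macrophage-like cells. These shares, and those of the macrophage lists below, are therefore a description only. The 104 genes, C1qb included, made up 6.17%, 6.80%, 11.4%, 9.25% and 8.27% of the summed RPKM of the 5 cells. The reference had a median of 0.139% and a highest value of 0.706%. Depth relative to cell 1, read from the step by which low values rise with each added read, was 1.00, 1.45, 1.76, 1.82 and 1.30, and 0.623 to 3.00 in the reference with a median of 1.96. Genes at 1 RPKM or more numbered 3489, 4839, 3408, 3363 and 3977, within the reference range of 2809 to 6502.

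The macrophage-like cells expressed many, but not all, of the receptors and adaptors of phagocytes. Of 24 measured, 15 were called higher, 0 lower and 9 neither, with a median log2 ratio of 6.61. In 11 of them the groups did not overlap. Tyrobp, the signalling adaptor for Trem2 and other activating receptors, was 2818, 1331, 3638, 4420 and 2457 RPKM, and in the reference it ran from 0 through a median of 0 to 26.2 RPKM, with 18.0% of cells at 1 RPKM or more (95% interval 8.58% to 31.4%). Fcer1g, the common chain of activating Fc receptors, was 1621, 1222, 1959, 2232 and 1163 RPKM against at most 50.0 RPKM in the reference. These adaptors were high in every macrophage-like cell and their levels were spread over less than 4-fold.

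Trem2, a receptor for lipids and apoptotic cells, was 292, 222, 387, 345 and 740 RPKM, with a reference maximum of 34.6 RPKM and 1 reference cell at 1 RPKM or more. Csf1r, the receptor for the macrophage growth factor, was 245, 245, 290, 204 and 75.4 RPKM. The groups overlapped for Csf1r, since 1 reference cell reached 112 RPKM, while the reference median was 0. Other receptors differed more among the 5 cells: Cx3cr1, the fractalkine receptor, was listed at 0 in cell 1 and was 36.7, 549, 611 and 68.8 RPKM in the others, and Mertk, a receptor for apoptotic cells, was 265, 5.30, 87.3, 0.302 and 4.51 RPKM. Emr1, which encodes F4/80, was 113, 566, 18.2, 66.7 and 160 RPKM and did not exceed 0.580 RPKM in any reference cell.

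Of 11 complement genes 5 were called higher and 0 lower, of which C1qb was fixed by the rule that chose the cells. The other 4 were C1qa and C1qc, which with C1qb form the C1q that starts the classical pathway, and the anaphylatoxin receptors C3ar1 and C5ar1. C1qa was 327, 567, 663, 401 and 1163 RPKM and C1qc was 776, 702, 501, 406 and 621 RPKM, with reference maxima of 5.89 and 3.17 RPKM. The 3 genes lie side by side on chromosome 4 in the mm9 coordinates of the table, from 136436061 to 136454759, and C1qb was the highest in every one of the 5 cells. C3ar1, the receptor for C3a, was 705, 689, 285, 533 and 211 RPKM against a reference maximum of 141 RPKM, and C5ar1, the receptor for C5a, was 683, 3.09, 86.0, 722 and 776 RPKM against 0.651 RPKM. Cell 25 was the low cell for C5ar1. Serping1, the C1 inhibitor, was listed at 0 in all 5 cells, and C3 in 4 of them.

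**Figure D2:**
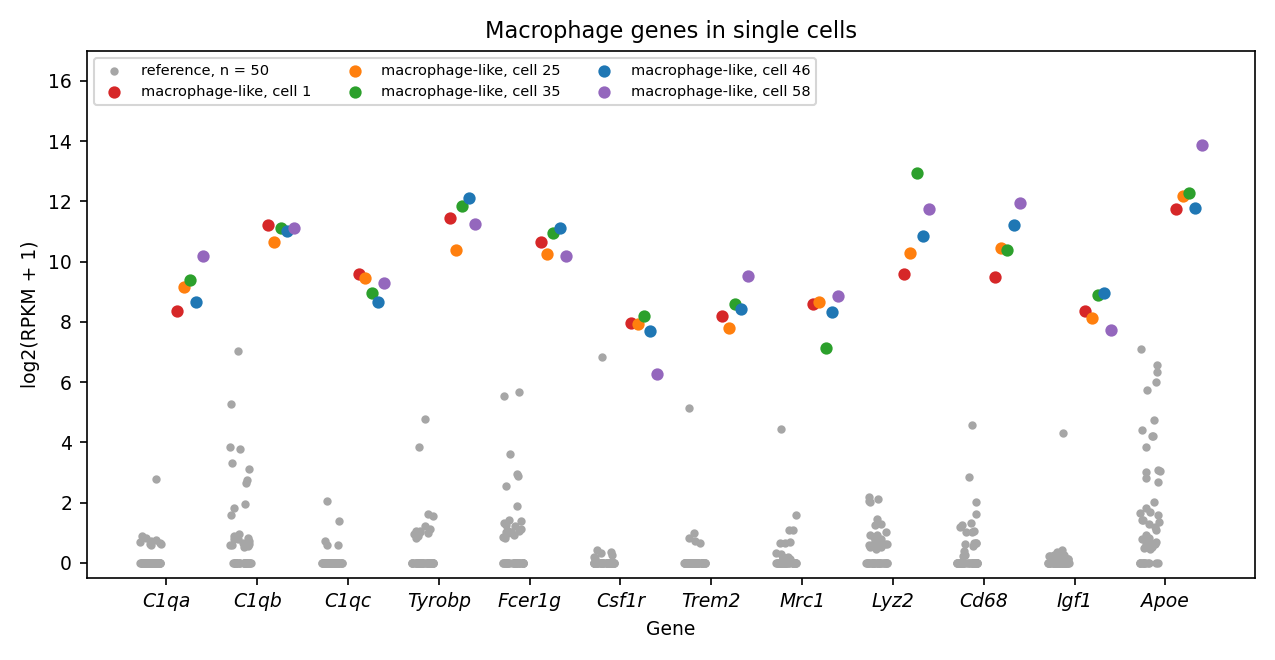
Levels of 12 macrophage genes as log2(RPKM + 1), with each reference cell in grey and each macrophage-like cell in its own colour. The 5 macrophage-like cells lie above every reference cell for each gene shown other than Csf1r, where 1 reference cell at 112 RPKM exceeds cell 58 at 75.4 RPKM.

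Secreted and antimicrobial products were the list with the largest share called higher, 13 of 16 (median log2 ratio 6.64). Lyz2, the macrophage lysozyme, was 775, 1257, 7942, 1828 and 3421 RPKM, and no reference cell exceeded 3.59 RPKM. Its neighbour Lyz1 overlaps it in the table's gene models and read 8.19% to 9.86% of the Lyz2 level in all 5 cells, so the 2 genes cannot be told apart here. Outside both groups, cells 53 and 13 had Lyz2 at 304 and 219 RPKM. Pf4, a chemokine made by resident macrophages, was 486, 1124, 2953, 2013 and 740 RPKM, and Igf1, a growth factor, was 327, 277, 472, 495 and 213 RPKM, with reference maxima of 214 and 18.6 RPKM. Sepp1, the plasma selenoprotein, was 2040, 2162, 7669, 1175 and 2477 RPKM, and 1 reference cell at 1231 RPKM exceeded cell 46.

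Chemokines of the monocyte and macrophage families differed widely among the 5 cells. Ccl3 was at 113 and 194 RPKM in cells 35 and 46 and listed at 0 in the other 3, whereas Ccl4 was at 480 and 73.2 RPKM in cells 25 and 58 and listed at 0 in the other 3. Ccl12 was 375 and 1061 RPKM in cells 25 and 35 and 9.38 RPKM in cell 58. Ccl6 was 675, 158, 1.56, 172 and 9.81 RPKM and Ccl24 was 0, 76.6, 125, 247 and 4.68 RPKM. The highest reference values of these 5 chemokines were between 0 and 1.53 RPKM.

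Of the transcription factors of the macrophage lineage, 8 of 15 measured were called higher and 0 lower (median log2 ratio 3.66). Maf was the highest, at 438, 398, 425, 585 and 270 RPKM, and the reference ran from 0 through a median of 0.656 to 286 RPKM, so that 1 reference cell exceeded cell 58. Spic, a factor of iron-recycling macrophages, was 7.73, 23.8, 0, 177 and 95.2 RPKM and was listed at 0 in every reference cell. Fli1, an ETS factor, was 163, 6.08, 338, 119 and 162 RPKM, and Irf8 was 0, 48.0, 66.4, 21.7 and 104 RPKM with 1 reference cell at 48.8 RPKM. PU.1 itself, listed under its older symbol Sfpi1, was 102, 1.36, 0, 17.9 and 30.8 RPKM, and 1 reference cell had it at 1 RPKM or more, at 6.33 RPKM.

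Haematopoietic signalling and cytoskeleton genes followed the receptors, with 16 of 24 called higher, 0 lower and a median log2 ratio of 5.23. Rac2, the GTPase of blood cells, was 283, 412, 658, 301 and 303 RPKM against at most 2.53 RPKM in the reference. Aif1, which encodes the actin-binding protein IBA1, was 107, 371, 467, 887 and 1034 RPKM against at most 1.96 RPKM. Tmsb4x was 4850, 3446, 4269, 6647 and 6765 RPKM, above a reference range of 0 to 564 RPKM. Arhgdib was listed at 0 in cell 1 and at 297 to 1525 RPKM in the other 4, and the reference reached 235 RPKM.

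Of 18 genes that mark resident macrophages, 10 were called higher and 0 lower (median log2 ratio 5.75). Mrc1, the mannose receptor, was 389, 407, 140, 321 and 463 RPKM, above every reference cell (highest 20.6 RPKM). Ms4a7 was 211, 358, 448, 140 and 508 RPKM, and Gpr34 was 433, 425, 215 and 22.2 RPKM in the first 4 cells and 0 in cell 58. Their reference maxima were 29.1 and 86.8 RPKM. Lyve1 was 40.3 and 48.1 RPKM in cells 25 and 35 and listed at 0 in the others, and Folr2 was 10.7, 52.8 and 2.83 RPKM in cells 1, 25 and 35 and listed at 0 in the others. Of the markers most used for microglia, P2ry12 was 4.73, 12.3 and 92.1 RPKM in cells 25, 35 and 58, Tmem119 was 14.8 RPKM in cell 25 and 0.359 RPKM in cell 35, and Olfml3 was listed at 0 in all 5.

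Markers of other cell types were checked in the same way. The 13 measured macrophage markers fixed for the check summed to 14565 to 33709 RPKM in the 5 cells and to 0 to 651 RPKM in the reference. C1qb, by which the cells were chosen, is among the 13, at 1589 to 2362 RPKM in the 5 cells. The 3 measured of 8 endothelial markers, Flt1, Tek and Egfl7, were listed at 0 in all 5 cells. Plac8, the 1 measured of 5 monocyte markers, was listed at 0 in all 5. Zbtb46, the 1 measured of 5 dendritic cell markers, was 5.57 RPKM in cell 25 and 0 in the others. Flt1, Tek, Egfl7 and Plac8 reached 1 RPKM in only 2, 2, 9 and 4 of 50 reference cells. Their values of 0 in 5 cells therefore do not set the groups apart. Alas2, an erythroid enzyme, was 29.0 RPKM in cell 25 alone of the 5. Kit, the 1 measured of 6 lymphoid and mast cell markers, did not exceed 0.0873 RPKM. The 6 stromal and mural markers summed to at most 1.15 RPKM, beside a reference median of 0.547 RPKM. Cd79b, a B cell receptor chain, was 117 RPKM in both cell 1 and cell 25 and reached 495 RPKM in the reference. H2-Ab1, a class II antigen presentation chain, was listed at 0 in all 5 cells, while 13 reference cells had it at 1 RPKM or more. The neutrophil and proximal tubule marker sets fixed for this check had 0 of 5 and 0 of 4 members measured, so nothing could be checked with these sets.

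**Figure D3:**
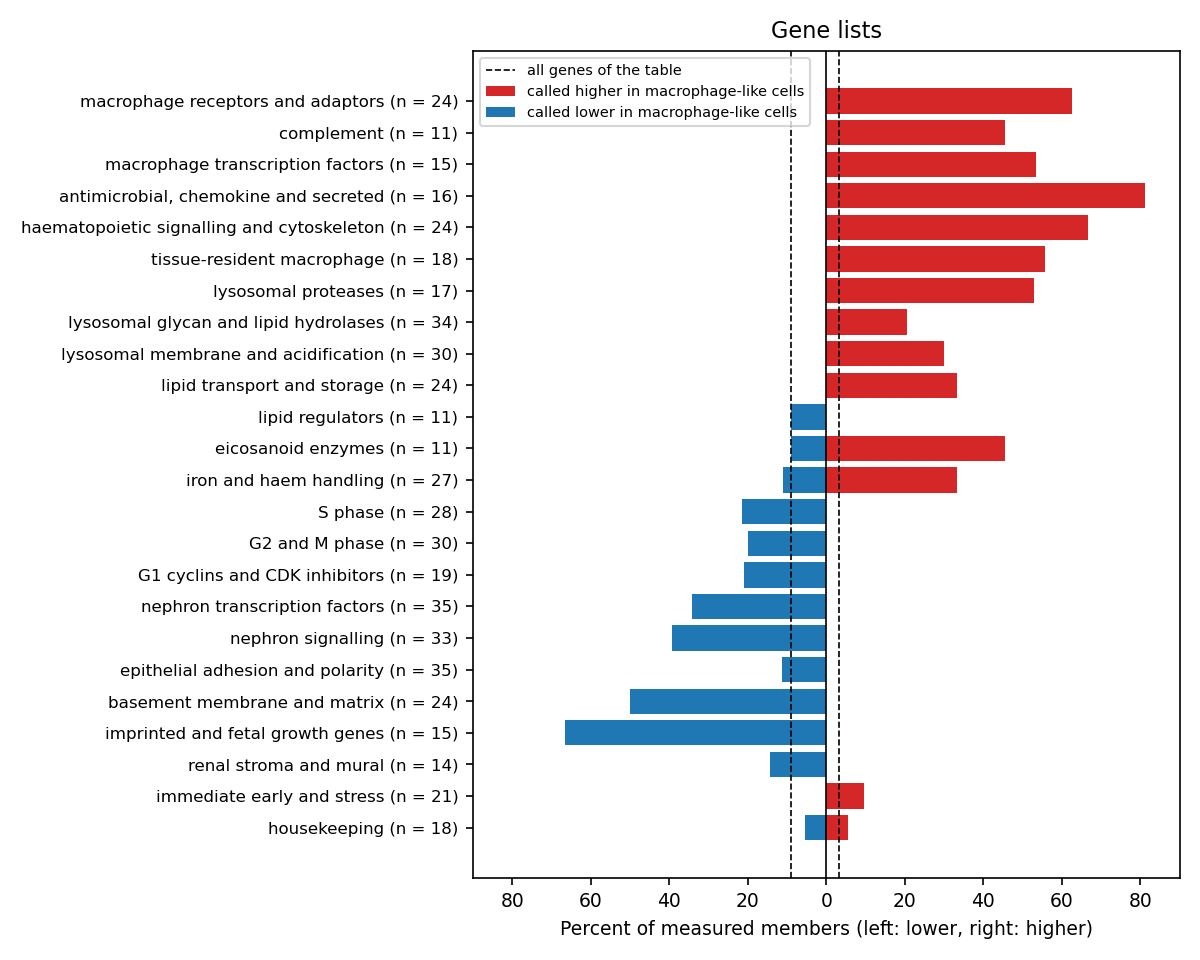
Percent of the measured members of each gene list with 10 or more measured genes that were called higher (red, to the right) or lower (blue, to the left), with dashed lines at the 3.26% and 8.95% of all genes. The macrophage, lysosome, lipid transport, eicosanoid and iron lists reach to the right, and the nephron, matrix and imprinted lists reach to the left.

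Lysosomal genes were the second large group higher in the macrophage-like cells. Across 84 lysosome genes, 25 were called higher (29.8%, against 3.26% of all genes) and 0 lower, with a median log2 ratio of 1.92. Their summed level was 14508, 26305, 26046, 21671 and 33506 RPKM, above the reference range of 1180 to 4661 RPKM. Of the proteases, 9 of 17 were called higher and 0 lower (median log2 ratio 3.69). Ctsb, a cysteine cathepsin, was 2640, 2687, 1803, 2494 and 4264 RPKM, whereas the reference ran from 0 through a median of 37.7 to 329 RPKM. Lgmn, the asparagine-specific protease legumain, was 1355, 2628, 2203, 2273 and 2094 RPKM against at most 322 RPKM in the reference. Ctsd, the aspartic cathepsin, was 691, 1900, 3039, 844 and 3438 RPKM against at most 389 RPKM.

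Ctss, a cathepsin restricted largely to antigen-presenting cells, was 1062, 1261, 821, 2447 and 2313 RPKM, and its reference median was 0 with a highest value of 42.5 RPKM. Ctsz was 300, 2139, 2292, 1390 and 3293 RPKM against at most 279 RPKM. For these 5 proteases the 2 groups did not overlap. Cell 1 was the lowest of the 5 for Lgmn, Ctsd and Ctsz, and for Ctsh it had 5.42 RPKM where the other 4 had 379 to 1162 RPKM. Not every cathepsin was higher: Ctsl was 736, 598, 567, 243 and 603 RPKM with a reference median of 259 RPKM and highest value of 1429 RPKM, and Ctsk, a protease of osteoclasts, was listed at 0 in all 5 cells.

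Glycan and lipid hydrolases differed less, with 7 of 34 called higher and 0 lower (median log2 ratio 1.47). Hexa, a subunit of beta-hexosaminidase, was 173, 1568, 286, 566 and 850 RPKM, and 1 reference cell, at 264 RPKM, exceeded cell 1. Lipa, the acid lipase that frees cholesterol from its esters, was 15.0, 274, 594, 67.3 and 578 RPKM, with a reference median of 0 and a highest value of 37.4 RPKM. Asah1, acid ceramidase, was 562, 552, 698, 13.3 and 214 RPKM, and cell 46 was the low cell. For Asah1, 25 of 50 reference cells were at or above cell 46, the highest at 188 RPKM.

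Among membrane and acidification genes, 9 of 30 were called higher and 0 lower (median log2 ratio 1.94). Cd68, a lysosomal glycoprotein of phagocytes, was 716, 1402, 1334, 2366 and 3944 RPKM against at most 22.6 RPKM, and Laptm5, a lysosomal membrane protein of blood cells, was 381, 601, 1027, 384 and 1432 RPKM against at most 8.34 RPKM. Lamp1, a structural protein of the lysosomal membrane, was 700, 473, 643, 468 and 396 RPKM, with a reference median of 2.05 and a highest value of 372 RPKM. Of the proton pump subunits, Atp6v0c at 1609, 1137, 1655, 284 and 941 RPKM and Atp6v0b at 162, 865, 495, 663 and 617 RPKM, were called higher with overlapping groups. The 3 measured lysosomal transcription factors were not called. Tfec was 0.288, 11.1, 59.8, 0 and 0.883 RPKM and was listed at 0 in every reference cell.

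Genes of lipid transport and storage, among them Apoe, Plin2 and Cd36, were higher in the macrophage-like cells. Of 24 measured, 8 were called higher (33.3%, against 3.26% of all genes) and 0 lower (median log2 ratio 1.10). Of 11 genes that regulate lipid metabolism 0 were called higher and 1 lower (9.09%, near the 8.95% of all genes), with a median of -0.70, and the difference between the lists was not tested. Apoe was 3412, 4627, 4954, 3520 and 14858 RPKM, and the reference ran from 0 through a median of 1.22 to 137 RPKM, with 26 of 50 cells at 1 RPKM or more. Plin2, the coat protein of lipid droplets, was 206, 996, 2767, 844 and 557 RPKM, and cell 1 lay just above the highest reference cell at 206 RPKM. Cd36, a scavenger receptor for oxidised lipids, was 297, 355, 18.8, 63.8 and 488 RPKM against at most 7.08 RPKM. Abcg1, a sterol exporter, was 232, 551, 117, 124 and 244 RPKM, and its reference median was 0.0854 with a highest value of 132 RPKM.

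Abca1, the other main sterol exporter, was 7.55, 4.57, 162, 156 and 6.88 RPKM against at most 2.04 RPKM. Cells 35 and 46 were thus high for Abca1 and low for Cd36 and Abcg1. Soat1, which esterifies cholesterol, was 89.2, 77.1, 189, 198 and 7.21 RPKM, and the last of these lay within the reference range. Fabp5, a fatty acid binding protein, was 1921, 472, 8.70, 166 and 1.08 RPKM and was not called, since the reference median was 152 RPKM. Among the regulators, Pparg was 7.60 and 6.50 RPKM in cells 1 and 35 and listed at 0 in the other 3 and in every reference cell, and Insig2, which retains the sterol sensor in the endoplasmic reticulum, was called lower (log2 ratio -2.25).

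Enzymes that make or degrade eicosanoids had 5 of 11 members called higher and 1, Lta4h, lower (median log2 ratio 2.22). Pla2g7, which degrades platelet-activating factor, was 1050, 234, 156, 444 and 762 RPKM. For Pla2g7, 7 reference cells were at or above the level of cell 35, the highest at 287 RPKM. Ltc4s, which makes leukotriene C4, was 0, 162, 131, 177 and 237 RPKM against at most 2.01 RPKM in the reference. Hpgds, which makes prostaglandin D2, was 131, 333, 15.6, 28.5 and 24.8 RPKM, and the reference reached 234 RPKM, above all but cell 25. Hpgd, which inactivates prostaglandins, was 526 RPKM in cell 35 and 0 to 17.6 RPKM in the others, with a reference maximum of 139.5 RPKM. Ptgs1, a cyclooxygenase, was found in cells 25, 46 and 58 at 44.5, 20.7 and 248 RPKM, and Ptgs2 was listed at 0 in all 5 cells.

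Iron storage and export genes were higher in the macrophage-like cells. Of 27 iron and haem genes measured, 9 were called higher (33.3%, against 3.26% of all genes) and 3 lower (11.1%, near the 8.95% of all genes). With a pseudocount of 10, a ratio of 10 or medians over cells, 0 were called lower. Ftl1 was 15683, 11108, 22070, 10115 and 19225 RPKM, and the reference ran from 68.0 through a median of 1615 to 3996 RPKM. Fth1, the ferritin heavy chain, was 4641, 5380, 3997, 2255 and 8450 RPKM against a reference median of 485 and a highest value of 1107 RPKM. The 2 ferritin chains together took 4.52%, 3.94%, 5.68%, 2.63% and 5.76% of the summed RPKM, against a median of 0.490% in the reference. The near-identical copy Ftl2 read 16.1% to 16.7% of Ftl1 in each of the 5 cells, so reads of these copies cannot be separated here.

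Slc40a1, the iron exporter ferroportin, was 420, 248, 184, 316 and 421 RPKM and at most 13.5 RPKM in the reference. The biliverdin reductases that complete haem breakdown were both called higher: Blvrb was 264, 112, 541, 809 and 462 RPKM and Blvra was 239, 429, 193, 455 and 426 RPKM. Their reference maxima were 237 and 121 RPKM, so the groups overlapped for Blvrb. Hmox1, the inducible haem oxygenase that acts before these reductases, was 30.8, 39.1, 0, 0 and 4.26 RPKM and was not called. The constitutive Hmox2 was 15.2, 1.23, 786, 304 and 564 RPKM. Its reference median was 21.5 with a highest value of 558.5 RPKM, and 32 reference cells were at or above cell 25. Trf, transferrin, was 73.7, 199, 319, 81.4 and 1184 RPKM against at most 52.4 RPKM. The genes called lower were Tfrc, the transferrin receptor (log2 ratio -2.99), Ireb2, an iron sensor that protects the Tfrc transcript (-2.50), and Slc46a1, a haem and folate transporter (-3.16). Slc46a1 was 1.79, 2.29, 1.50, 3.29 and 2.55 RPKM, each above the reference median of 1.44 RPKM, while the highest reference cell had 313 RPKM.

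**Figure D4:**
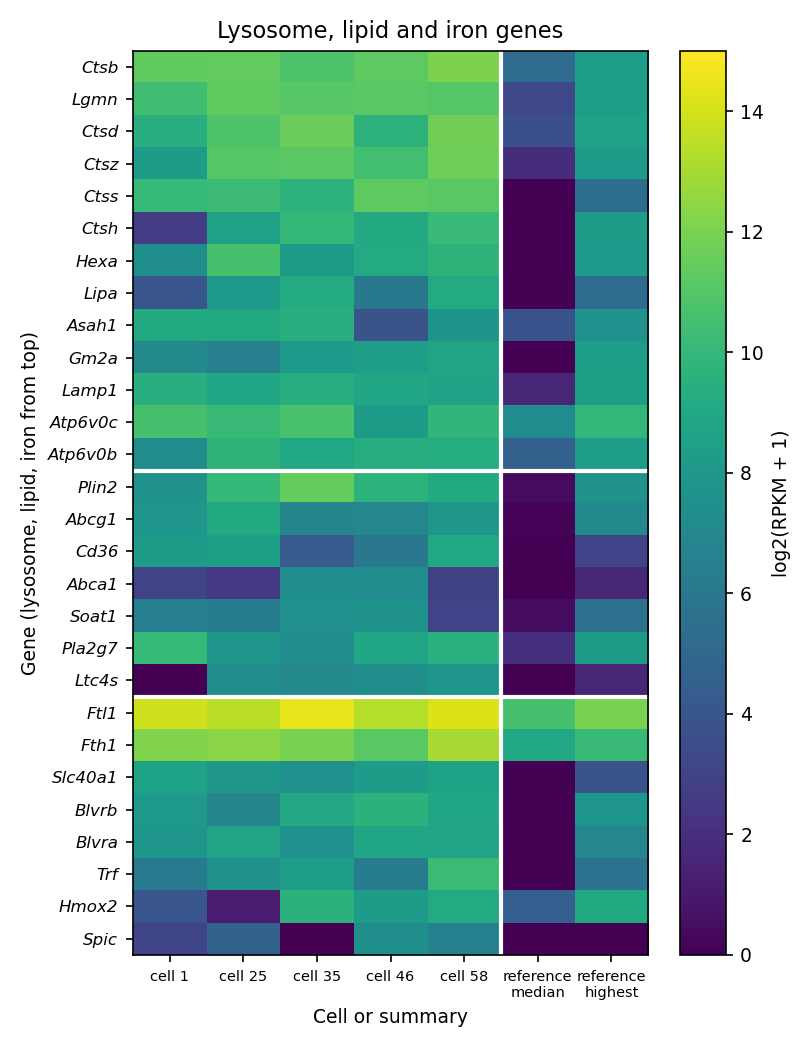
Heat map of log2(RPKM + 1) for 28 lysosome, lipid and iron genes (rows) in the 5 macrophage-like cells and, at the right, the reference median and highest cell. Ferritin Ftl1 is the brightest row, and cell 1 is darker than the other 4 for Ctsh and Lipa.

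Cell cycle genes set the 5 cells apart from one another. Cells 35 and 46 had summed S phase levels of 262 and 543 RPKM and summed G2 and M phase levels of 197 and 246 RPKM. Cell 1 had 3534 RPKM of S phase genes and 365 RPKM of G2 and M phase genes, cell 25 had 3279 and 899 RPKM, and cell 58 had 1243 and 2712 RPKM. The reference medians were 1983 and 2109 RPKM, and both sums of all 5 cells lay within the reference ranges of 150 to 6034 RPKM and 13.1 to 7967 RPKM. Of 28 S phase genes, 16, 18, 2, 4 and 11 reached 10 RPKM in the 5 cells, against a reference median of 15.0, and of 30 G2 and M phase genes, 2, 14, 1, 2 and 21 did so, against 16.5.

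Some single genes showed the same division and others did not. Pcna, the replication clamp, was 122, 905, 0.592, 0.573 and 128 RPKM, and Mcm3, a subunit of the replicative helicase, was 416, 322, 0, 0 and 53.7 RPKM. Rrm2, which makes deoxynucleotides, was 42.1, 368, 1.03, 1.66 and 167 RPKM. Ccnb1, the mitotic cyclin, was 353 RPKM in cell 58 and 0.187 to 1.69 RPKM in the others, and its kinase Cdk1 was 1.38, 70.6, 3.72, 0.101 and 270 RPKM. Top2a, which untangles replicated DNA, was 43.0, 73.6, 2.28, 1.30 and 260 RPKM. Cdca8, a subunit of the mitotic passenger complex, was 212 RPKM in cell 58 and at most 0.203 RPKM in the others. Other genes departed from the division. Mcm7 was 457, 163, 0.623, 210 and 0.420 RPKM, and Cks2 was 0, 125, 9.20, 197 and 214 RPKM, so that cell 46 was high for both. Slbp was 214.5 RPKM in cell 35 and 0 in cell 46, and Ccnb2 did not exceed 1.305 RPKM in any of the 5 cells.

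Over the 77 cell cycle genes 0 were called higher and 16 lower (20.8%, against 8.95% of all genes). Of the 53 that were detected in at least 25 reference cells, 30.2% were called lower, near the 29.8% of all genes so detected. Their median log2 ratio was -1.37 beside -1.10 for all genes. Without cell 58 the number called lower was 25. D-type cyclins were among the 16. Ccnd1 was 8.25, 24.9, 1.62, 75.9 and 13.7 RPKM against a reference median of 454 RPKM, and Ccnd2 did not exceed 2.95 RPKM. Cdk4, their kinase, was 705, 18.2, 699, 2.14 and 5.98 RPKM, and cells 35 and 1, which differed in S phase genes, were both high. Cdkn1c, an inhibitor of the cycle that is expressed from the maternal allele, did not exceed 0.518 RPKM in the 5 cells and was called lower.

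**Figure D5:**
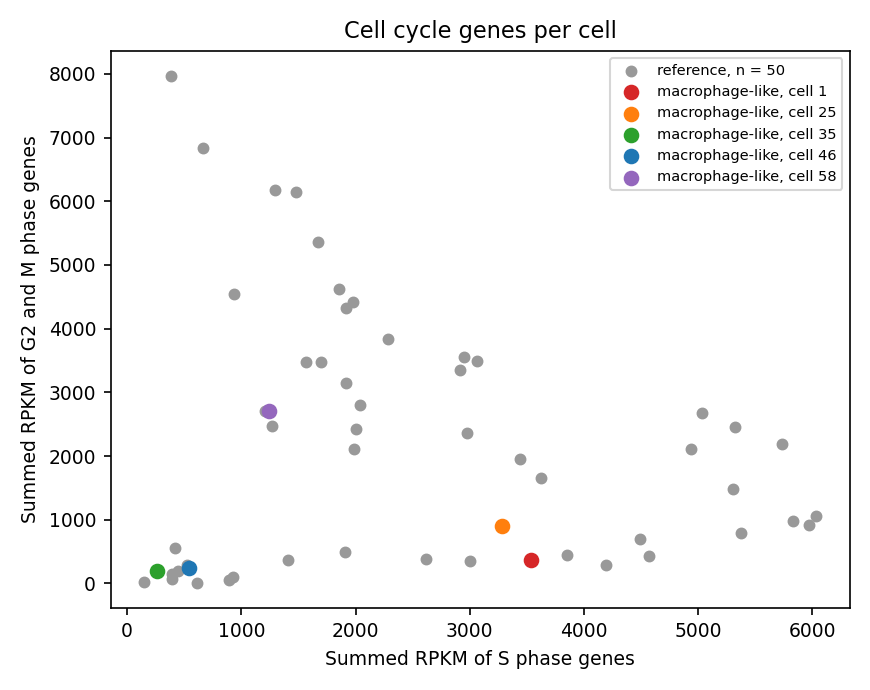
Summed RPKM of 28 S phase genes (horizontal) and 30 G2 and M phase genes (vertical) in each cell. Cells 35 and 46 lie near the origin, cells 1 and 25 to the right with 3534 and 3279 RPKM of S phase genes, and cell 58 higher with 2712 RPKM of G2 and M phase genes.

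Genes of the nephron were the main group lower in the macrophage-like cells. Over 142 genes of nephron transcription factors, signalling, epithelium, matrix and imprinted growth control, 51 were called lower (35.9%, against 8.95% of all genes) and 0 higher, and the median log2 ratio was -3.54. Of the 58 detected in at least 25 reference cells 87.9% were called lower, beside 29.8% of all genes so detected, a description only, since these members passed through their level in the reference. Pax8, which defined the reference, is 1 of the 51, and without it 50 of 141 were called lower. Their summed level was 351, 467, 439, 323 and 385 RPKM, below the lowest reference cell at 4041 RPKM. Of 35 nephron transcription factors, 12 were called lower including Pax8, 24 did not reach 1 RPKM in any of the 5 cells and 13 were listed at 0 in all 5. Wt1, a regulator of nephron progenitors and podocytes, was 2.72, 1.37, 2.66, 0.786 and 0.888 RPKM against a reference median of 98.3 and highest value of 1382 RPKM. Sox11, which is active in early nephron structures, was 1.24, 0.322, 1.06, 0.683 and 0.119 RPKM and its lowest reference cell had 13.7 RPKM, so the groups did not overlap.

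Lhx1 was 1.43, 0, 0, 0.262 and 0 RPKM with a reference median of 62.1 RPKM, and Sall1 did not exceed 0.284 RPKM with a reference median of 55.2 RPKM. Six2, Emx2, Osr1, Sim1, Uncx, Foxc1, Foxc2, Pou3f3, Hoxd9, Hoxd10 and Hoxd11 were among the factors listed at 0 in all 5 macrophage-like cells. Several of these were also rare in the reference: Six2 reached 1 RPKM in 5 of 50 reference cells and Osr1 in 2, so that a value of 0 in 5 cells says little about them.

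Among 33 signalling genes 13 were called lower (39.4%, against 8.95% of all genes) and 0 higher (median log2 ratio -3.95). Jag1, a Notch ligand of the renal vesicle, was 6.21, 4.96, 4.51, 0.545 and 1.90 RPKM against a reference median of 209 RPKM, and the lowest reference cell, at 2.63 RPKM, lay among them. Sfrp2, a secreted Wnt modulator, was 3.94, 2.26, 4.10, 4.33 and 4.02 RPKM against a reference median of 198 RPKM. Tmem100, a membrane protein downstream of BMP signalling, was 0.818 RPKM in cell 46 and listed at 0 in the other 4, with a reference median of 11.1 and a highest value of 813 RPKM. Hey1, a Notch target, was 14.1 RPKM in cell 58 and at most 0.677 RPKM in the others. Small nonzero values of abundant nephron genes were thus found in all 5 cells.

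Of 35 epithelial adhesion and polarity genes 4 were called lower (11.4%, near the 8.95% of all genes) and 0 higher. The list had a median log2 ratio of -3.01. Only 6 of the 35 were detected in at least 25 reference cells. Of these, 66.7% were called lower, beside 29.8% of all genes so detected. Among the 4 called lower, Ncam1, an adhesion molecule, was 1.80, 0.442, 0.510, 0.493 and 0.295 RPKM, below every reference cell (lowest 13.4 RPKM). Cd24a was 1.45, 0.499, 2.06, 0.795 and 1.66 RPKM against a reference median of 232 RPKM. Of 24 basement membrane and matrix genes 12 were called lower (50%, against 8.95% of all genes). Sparc, a collagen-binding glycoprotein, was 0.571, 0.394, 0.325, 0 and 1.31 RPKM with a reference median of 255 RPKM. Lamc1, the laminin gamma chain, was an exception in 2 cells, at 23.3 RPKM in cell 25 and 33.8 RPKM in cell 58, against at most 0.517 RPKM in the other 3.

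Of 15 imprinted and fetal growth genes 10 were called lower (66.7%, against 8.95% of all genes). This was the largest share of measured members in any list with more than 10 measured genes. Among members detected in at least 25 reference cells the share was 90.9%. It was 92.3% for matrix genes, 100% for nephron transcription factors and 29.8% for all genes so detected. H19, a noncoding RNA expressed from the maternal allele, was 1.51, 1.04, 1.14, 1.38 and 0.385 RPKM with a reference median of 95.8 and a highest value of 2845 RPKM. Mest, expressed from the paternal allele, was 216 RPKM in cell 58 and at most 1.90 RPKM in the other 4. Gpc3, a proteoglycan that restrains growth, was 3.87, 0.334, 1.10, 24.2 and 0.371 RPKM against a reference range of 20.2 to 710 RPKM, so that cell 46 alone entered that range.

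The largest differences among genes called lower were not confined to the lists. Npy, a neuropeptide, was listed at 0 in all 5 cells and had a reference median of 166 and a highest value of 1799 RPKM. Id3, an inhibitor of helix-loop-helix factors, was 2.75, 3.80, 1.57, 0 and 1.05 RPKM against a median of 620 RPKM. Clu, the chaperone clusterin, was 0, 2.51, 3.30, 2.39 and 1.67 RPKM against a median of 374.2 RPKM. Cnn3, an actin-binding protein, was 1.18, 0.407, 0.671, 1.30 and 0.452 RPKM against a median of 256 RPKM and was below every reference cell. Plp2, Mgst1, S100a16 and Pcp4 were listed at 0 in all 5 cells, and 41, 39, 43 and 33 of the 50 reference cells had them at 1 RPKM or more. Phgdh, the first enzyme of serine synthesis, was 1.16 RPKM in cell 46 and 0 in the other 4, with a reference median of 80.6 RPKM.

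A pair of genes best known from the proximal tubule went the other way. Gatm, which makes the precursor of creatine, was 1158, 601, 1443, 676 and 1861 RPKM and at most 136 RPKM in the reference. Dab2, an endocytic adaptor, was 87.0, 91.4, 147, 204 and 40.9 RPKM with 2 reference cells, up to 71.0 RPKM, above cell 58. The other 3 measured genes of that list did not exceed 0.0956 RPKM in any of the 5 cells. Crym, whose promoter drives the transgene, was listed at 0 in all 5 macrophage-like cells and reached 1 RPKM in 7 of 50 reference cells. The EGFP transcript was not analysed here.

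Among genes used as loading references, B2m, the light chain of class I molecules, was 1798, 1666, 1904, 2363 and 501 RPKM against at most 76.0 RPKM, and Actb was 17111, 9075, 8996, 17368 and 14264 RPKM, above every reference cell (highest 6927 RPKM). Eef1a1, a translation factor, was 1996, 1045, 1661, 2259 and 2146 RPKM against a reference median of 6616 RPKM. The 81 ribosomal protein genes had a median log2 ratio of -0.84, with 76 of them below 0. The median was also -0.84 over the 3634 genes detected in at least 25 reference cells. The summed level of the 81 ribosomal protein genes was 37491, 25850, 29823, 53266 and 44885 RPKM against a reference median of 64271 RPKM. Of these genes 1 was called lower and 0 higher.

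Across all genes, the 5 cells correlated with one another to a degree near that among reference cells. Spearman's rho between 2 macrophage-like cells was 0.406 to 0.476 with a median of 0.445 over 10 pairs, and the median over the 1225 pairs of reference cells was 0.443 (0.332 to 0.542). Between a macrophage-like and a reference cell it was 0.286 to 0.403 with a median of 0.352 over 250 pairs. These correlations are across genes within a few cells that share 1 pool and are given as a description. Genes at 100 RPKM or more in 1 of the 5 cells and below 1 RPKM in the other 4 numbered 53, 57, 54, 62 and 48, which was 5.10% to 6.17% of the genes at 100 RPKM in each cell.

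Macrophage genes were also found in other cells. Of the 52 cells that were not macrophage-like, 11 had C1qb at 1 RPKM or more (95% interval 11.1% to 34.7%), 9 had Tyrobp, 10 had Cd68, 10 had Lyz2, 27 had Apoe and 1 had C1qa. The 91 genes at least 50-fold higher in the macrophage-like cells were picked on these same cells. A gap in their sum between the groups was therefore fixed by the choice. Their summed level was 34263 to 57781 RPKM in the 5 cells and had a median of 76.1 and a highest value of 1142 RPKM in the reference. That highest value was in cell 26, which had Apoe at 93.9, Tyrobp at 13.3 and C1qb at 12.6 RPKM and reached 1 RPKM for 6 of 7 macrophage markers. Cell 26 was also the reference cell with the highest Maf, C3ar1, Csf1r and Ctss, at 286, 141, 112 and 42.5 RPKM.

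Cell 56, next to the threshold with C1qb at 129 RPKM, had the second highest sum of the 91 genes, 730 RPKM, with 11 of them at 10 RPKM or more. It held the highest reference values of Pf4 (214 RPKM), Fcer1g (50.0 RPKM), Trem2 (34.6 RPKM) and Mrc1 (20.6 RPKM), while C1qa, C1qc, Tyrobp and Lyz2 were listed at 0 and Cd68 was 1.09 RPKM. Cells 13 and 53, in neither group, had macrophage identity sums of 5404 and 7986 RPKM, above the reference maximum of 2641 RPKM and below the 27742 RPKM of cell 1. Tmsb4x, at 3831 and 4491 RPKM, made up 70.9% and 56.2% of these sums. Serping1, which was listed at 0 in the 5 macrophage-like cells, was 514 and 1093 RPKM in cells 13 and 53, whose complement sums were 553 and 1667 RPKM. C1qa, C1qb, C1qc, Tyrobp and Cd68 were listed at 0 in both.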

How the data were processed

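RNA of 57 single cells was amplified with SMARTer chemistry and sequenced without molecular identifiers. RPKM values were deposited by the authors in 1 table on mm9 coordinates, made with TopHat 1.4.1 and DESeq, per the submitters' processing notes. Each of the 12087 genes has at least 2 cells above 3 RPKM, a property checked on the values. Counts were not recovered, so no count test was run. Cells were grouped by C1qb (at least 1000 RPKM) and Pax8 (at least 5 RPKM). The ratio of mean RPKM plus 1 was taken over the deposited values with numpy 2.4.6 and pandas 2.3.3 in Python 3.11.15, and shares of cells were given exact intervals with scipy 1.17.1. The script that makes the calls was tested on simulated data. The members and the 31 gene lists were chosen with earlier results of these data known. Genes named were 7 markers, the 20 largest and 20 smallest ratios among called genes, the 6 highest members of each list, and members for other cell types below 1 RPKM in all 5 cells. All expression columns matched a labelled cell. A second table of a subset of cells was not used.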

Additional observations from a re-analysis of the deposited data

Results flagged for a closer look

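In 31 of 127 sets of 5 values, 1 cell stood apart from the other 4 by most of the set's range. Chance alone would flag about 1 in 20 such sets if the values were normally distributed, which was not shown for these values. Some of the genes were also chosen after their values were seen. The 31 of 127 is therefore not to be read as an excess over chance. Single-cell values without molecular identifiers often fall at 0 or far above it, and the cause of each gap was not tested.

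Cell 58 was the highest in 13 of them. It had Apoe at 14858 RPKM where the next cell had 4954 RPKM, and a summed lipid handling level of 18410 RPKM where the next had 9849 RPKM. Its summed G2 and M phase level was 2712 RPKM beside 899 RPKM, with Ccnb1 at 353 RPKM, Cdca8 at 212 RPKM, Cdk1 at 270 RPKM and Top2a at 260 RPKM. Trf was 1184 RPKM there, Ptgs1 248 RPKM, Mest 216 RPKM, P2ry12 92.1 RPKM, Hey1 14.1 RPKM and C3 11.4 RPKM.

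Cell 25 stood apart by Pcna at 905 RPKM, Emr1 at 566 RPKM, Ccl4 at 480 RPKM, Folr2 at 52.8 RPKM, Alas2 at 29.0 RPKM, Tmem119 at 14.8 RPKM and Zbtb46 at 5.57 RPKM. It was the low cell for Sfrp2, at 2.26 RPKM. Cell 35 stood apart by Sepp1 at 7669 RPKM, Hpgd at 526 RPKM and Tfec at 59.8 RPKM. Cell 1 did so by Fabp5 at 1921 RPKM, Ccl6 at 675 RPKM, Ncam1 at 1.80 RPKM and Lhx1 at 1.43 RPKM. Cell 46 did so by Gpc3 at 24.2 RPKM, Phgdh at 1.16 RPKM and Tmem100 at 0.818 RPKM.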

How the results depend on the processing

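Of 1676 recomputed ratios of 120 called named genes, 1675 kept their sign and 321 moved by more than the SD between cells. The exception was Ndn, whose log2 ratio was 0.07 when C1qb of at least 100 RPKM chose the cells, which adds cell 56. That choice gave 246 genes higher, 12 and 0 without overlap in the higher and lower direction, and 1 iron gene lower. A pseudocount of 10 gave 466 genes lower and 0 lipid and 0 iron genes lower. A ratio of 2 gave 661 higher and 1697 lower genes, 39 lysosome genes higher and 30 cell cycle genes lower. A ratio of 10 gave 223 and 609 genes, 15 lysosome and 5 iron genes higher, and 0 lipid and 0 iron genes lower. Medians over cells gave 621 genes higher, 1 lipid gene lower and 0 iron genes lower. Scaling by median ratios gave 1 lipid gene lower. Detection at 5 RPKM gave 663 genes lower, with 1 lipid, 1 iron and 9 cell cycle genes. Leaving out 1 of the 5 cells at a time gave 249 to 296 genes higher, the lowest without cell 25, and 1153 to 1299 lower. It gave 1 to 2 lipid genes lower and 14 to 25 cell cycle genes lower, the highest without cell 58. The causes of these shifts were not tested. No paired analysis was possible because all cells carry 1 group label. With 5 cells from 1 pool, nothing here measures variation between mice, and a value of 0 in a single cell can be a missed transcript.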

Other observations

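The genes in this section were chosen after their values were seen. H2-D1, a class I heavy chain, was 2111, 1783, 1564, 2016 and 329 RPKM in cells 1, 25, 35, 46 and 58, against a reference median of 1.35 and a highest value of 698 RPKM. H2-K1, another class I heavy chain, was 1.71, 279, 37.1, 404 and 32.2 RPKM, and 13 reference cells were at or above the level of cell 1. Of the class II pathway, H2-DMb1 was 11.4 and 36.5 RPKM in cells 25 and 35 and listed at 0 in the other 3. Psmb8, a subunit of the immunoproteasome, was 453, 14.1, 126, 31.9 and 12.3 RPKM, with a reference maximum of 41.0 RPKM. Sat1, which acetylates polyamines, was 2878, 2543, 2378, 843 and 2793 RPKM and at most 271 RPKM in the reference. Ccr1, a chemokine receptor, was 421, 7.68, 68.5, 793 and 123 RPKM and at most 4.43 RPKM in the reference. Vcam1, an adhesion molecule, was 249, 252, 216 and 93.9 RPKM in the first 4 cells and 0 in cell 58.

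Immediate early genes, which respond quickly to stimulation and to tissue dissociation, differed among the 5 cells. Fos was 1073, 1144, 67.4, 0 and 1092 RPKM, and Atf3 was 431 RPKM in cell 25, 221 RPKM in cell 58 and listed at 0 in the other 3. The 21 measured genes of this list summed to 2250, 4954, 2335, 808 and 5108 RPKM, against a reference median of 2115 and a highest value of 4602 RPKM, so that cells 25 and 58 lay above every reference cell. Of the list, 2 genes, Fos and Zfp36, were called higher and 0 lower. The part of dissociation in these levels was not tested.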
